A study of Mus musculus with 9 samples.

Results

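Cytosolic ribosomal proteins are the protein components of the ribosomes that translate nuclear-encoded messages. Their genes were taken by symbol from the deposited table (symbols that read Rpl or Rps with a number, Rplp0 to Rplp2 and Rpsa), which gave 85 of 59445 features. A gene was kept where its normalized read value was at least 10 in at least 4 of the 9 libraries. That left 83 genes, 50 of the large and 33 of the small subunit, among 15288 features kept in all. At the edge of that limit, Rpl3l was inside with 8 libraries at 10 or more, and Rpl39l was outside with 2 libraries, S9 at 77.1 and S11 at 57.7. Rpl10l was at 0 in every library and was also left out. Rps4l and Rpl32l, which the symbol rule kept, are annotated by GENCODE as processed pseudogenes.

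The libraries came from liver macrophages that were positive for F4/80 and CD11b and were sorted from male C57BL/6 mice. The groups were 5 mice labelled MAGL Mye-/- (libraries S8 to S12) and 4 mice labelled MAGL fl/fl (S1, S3, S4 and S5). All 9 mice had received carbon tetrachloride (CCl4), a liver toxin, once by intraperitoneal injection 24 hours earlier, at 0.6 mg/kg as labelled (a unit that could not be checked). S8 and S12 were 11 weeks old and S9, S10 and S11 were 10 weeks old, against 11 weeks for all 4 fl/fl mice, so age was partly tied to genotype. Mgll encodes MAGL (monoacylglycerol lipase), which releases fatty acids such as arachidonic acid from monoacylglycerols. The labels describe a loss in myeloid cells and do not name the Cre line, and the floxed control mice carry the unrecombined allele. The labels list the libraries as separate samples. Each was taken as 1 mouse, and a p-value measures only the spread between these libraries.

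Each ribosome joins a small subunit, which reads the message, to a large subunit, which forms the peptide bond. The proteins are needed in matched amounts, and their messages in mammals mostly begin with a terminal oligopyrimidine (TOP) run, a C followed by a stretch of C and T, through which mTORC1 and the RNA-binding protein Larp1 control their translation. Translation of these messages is known to follow nutrient and growth signals, in macrophages as in other cells. Many ribosomal protein genes also carry small nucleolar RNAs (snoRNAs), guides of rRNA modification, in their introns, and have processed pseudogenes across the genome.

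The start sites of a few members show the run typical of the class. Each line below gives 30 bases before and 20 bases from the RefSeq start on GRCm38.p6, read 5′ to 3′ on the gene's own strand, with the longest run that begins with C and holds only C or T within 10 bases on either side of the start in capitals (in Rpl27a the run goes on past that window). The first 4 are large-subunit genes among the 8 with the smallest p, Rps6 is the member that followed the other members most closely, and Rps4x and Rpl24 hold no such run of 5 or more bases.
Rplp2, chr7:141447621-141447670, plus strand: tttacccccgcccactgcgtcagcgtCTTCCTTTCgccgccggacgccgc
Rpl14, chr9:120571487-120571536, plus strand: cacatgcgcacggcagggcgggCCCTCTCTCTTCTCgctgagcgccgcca
Rpl27a, chr7:109519165-109519214, plus strand: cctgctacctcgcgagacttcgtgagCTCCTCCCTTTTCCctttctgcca
Rpl28, chr7:4792935-4792984, plus strand: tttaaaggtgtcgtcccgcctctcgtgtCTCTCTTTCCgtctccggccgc
Rps6, chr4:86857348-86857397, minus strand: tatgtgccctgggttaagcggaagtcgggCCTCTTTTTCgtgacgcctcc
Rps4x, chrX:102189372-102189421, minus strand: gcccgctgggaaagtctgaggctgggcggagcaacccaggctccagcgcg
Rpl24, chr16:55966245-55966294, plus strand: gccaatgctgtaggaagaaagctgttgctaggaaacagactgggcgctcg

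Of the 85 genes, 64 had an entry in the RefSeq promoter table. A run of C followed by at least 4 C or T lay within 10 bases on either side of the start in 35 of these 64 (54.7%), against 28.8% of all 27025 genes in the table. The letters CCGGAAG, a form of the motif bound by ETS factors, lay on either strand within 250 bases before to 50 after the start in 40.6% of the 64 genes and 9.93% of all genes. GGGCGG, read by Sp factors, was in 60.9% against 38.2%, and TATAAA in 12.5% against 15.7%. Annotated starts can be off by several bases, so a run that is missing from the window says only that these letters are not there. The run did not separate the genes by their difference between genotypes: the median log2 fold change was -0.17 over the 33 tested genes with it and -0.18 over the 29 without it.

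Sequencing depth was similar in the groups, with totals from 33383559 to 46489349 reads per library over both. Between 15614 and 16802 features were detected in Mye-/- libraries and between 14240 and 16385 in fl/fl libraries. Mgll itself (chr6:88724412-88828360, mm10) had 30.4, 46.6, 5.93, 42.7 and 0 normalized reads in Mye-/- libraries S8 to S12, against 18.6, 0, 106 and 22.8 in fl/fl libraries S1, S3, S4 and S5. The groups overlapped (log2 fold change -0.15, SE 1.69, limma adjusted p = 0.985), so the level of Mgll did not check the genotype labels, and the value covers the whole gene rather than a deleted part. All 8 macrophage identity genes examined were above 0 in every library, with summed values of 321201 to 387060 in Mye-/- libraries and 374967 to 587906 in fl/fl libraries. Lyz2 weighs heavily in that sum: the other 7 genes summed to 177631 to 208721 in Mye-/- libraries and 153438 to 194604 in fl/fl libraries. Of 9 genes of resident Kupffer cells, 1 was above 0 in every library. Summed erythroid genes ran from 2344 to 6567 in Mye-/- libraries and from 5525 to 35097 in fl/fl libraries, with the erythrocyte anion exchanger gene Slc4a1 at 0 in all 9. Summed neutrophil genes ran from 20326 to 43588 and summed hepatocyte genes from 15496 to 33302 in Mye-/- libraries, against 30756 to 52784 and 14044 to 26750 in fl/fl libraries. S100a8 weighs heavily in the neutrophil sum, with means of 17455 in Mye-/- and 30191 in fl/fl libraries. Trf made up most of the hepatocyte sum, with means of 17201 in Mye-/- and 17602 in fl/fl libraries, and hides the other genes. Alb was at 7085 reads in S10, against 656 to 1201 in the other Mye-/- libraries and 346 to 1224 in fl/fl libraries. In sorted bulk cells, fewer cells of a type and less RNA per cell cannot be told apart.

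Ribosomal protein genes took a slightly smaller part of the reads in Mye-/- macrophages, and the groups overlapped. Large-subunit genes held 2.12, 1.78, 1.94, 2.02 and 1.82% of all normalized reads in Mye-/- libraries S8 to S12, against 2.21, 2.18, 2.08 and 2.05% in fl/fl libraries S1, S3, S4 and S5. Small-subunit genes held 2.24, 1.83, 1.95, 2.09 and 1.80% in Mye-/- libraries in the same order, against 2.16, 2.29, 2.10 and 2.09% in fl/fl libraries. S8 was high for its genotype in both subunits, S9 and S12 were lowest, and among fl/fl libraries S1 and S3 were highest. The means were 1.94 ± 0.14% and 2.13 ± 0.077% for the large subunit (SD, n = 5 and n = 4) and 1.98 ± 0.185% and 2.16 ± 0.0935% for the small subunit, which put Mye-/- 0.193 and 0.178 percentage points below fl/fl. Without S1 and S3 the gaps were 0.128 and 0.111 points, given here as sizes, with Mye-/- still the lower. No p is given, because the genes were chosen with earlier results of these data known.

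**Figure D1:**
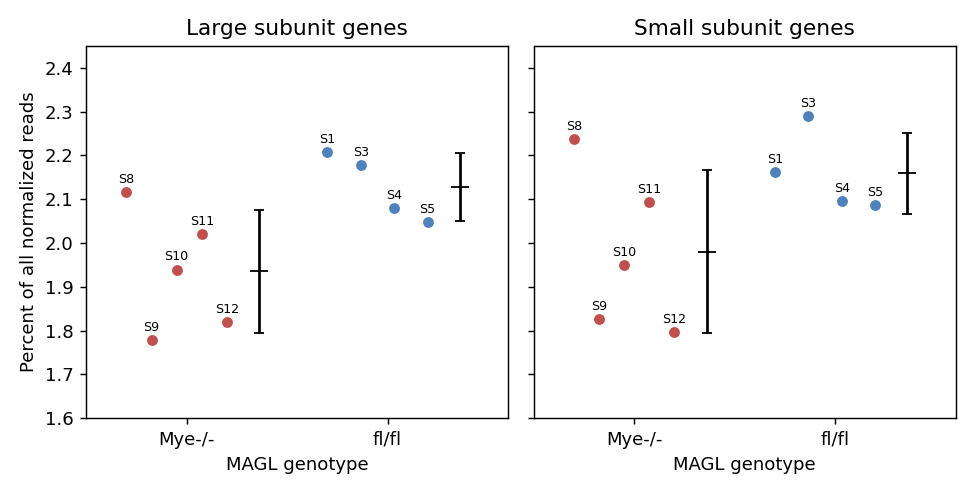
Percent of all normalized reads (vertical axis, which does not start at 0) held by large-subunit genes (left) and small-subunit genes (right) in 5 Mye-/- libraries (red) and 4 fl/fl libraries (blue); bars are mean and SD. The Mye-/- library S8 lies among the fl/fl libraries, while S9 and S12 lie lowest.

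The balance between the subunits did not move with genotype beyond its spread. The summed large-subunit value divided by the summed small-subunit value was 0.979 ± 0.0259 in Mye-/- libraries and 0.986 ± 0.0292 in fl/fl libraries (SD, n = 5 and n = 4). Both subunits went up and down together from library to library. Relative to each gene's own mean over the 9 libraries, on the log2 scale, the median large-subunit gene stood at 0.17, -0.20, -0.11, 0.03 and -0.19 in Mye-/- libraries S8 to S12, and at 0.10, 0.21, -0.01 and 0.05 in fl/fl libraries S1, S3, S4 and S5. The median small-subunit gene stood at 0.20, -0.17, -0.18, 0.03 and -0.27 in Mye-/- libraries and at 0.09, 0.22, -0.04 and 0.05 in fl/fl libraries. The order of the libraries was nearly shared: S3 and S8 were highest in both subunits, and S9, S10 and S12 were the lowest 3.

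Library by library, 69, 6, 18, 47 and 8 of the 83 genes were above their own mean in Mye-/- libraries S8 to S12, against 52, 74, 39 and 58 in fl/fl libraries S1, S3, S4 and S5. A gene's highest value of all 9 fell in S3 for 33 genes, in S1 for 23 and in S8 for 18. Its lowest fell in S9 for 24, in S12 for 24 and in S10 for 20. S1 differed from S3 in which genes were high: it also held the lowest value of 9 genes, whereas S3 held the lowest of 1.

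**Figure D2:**
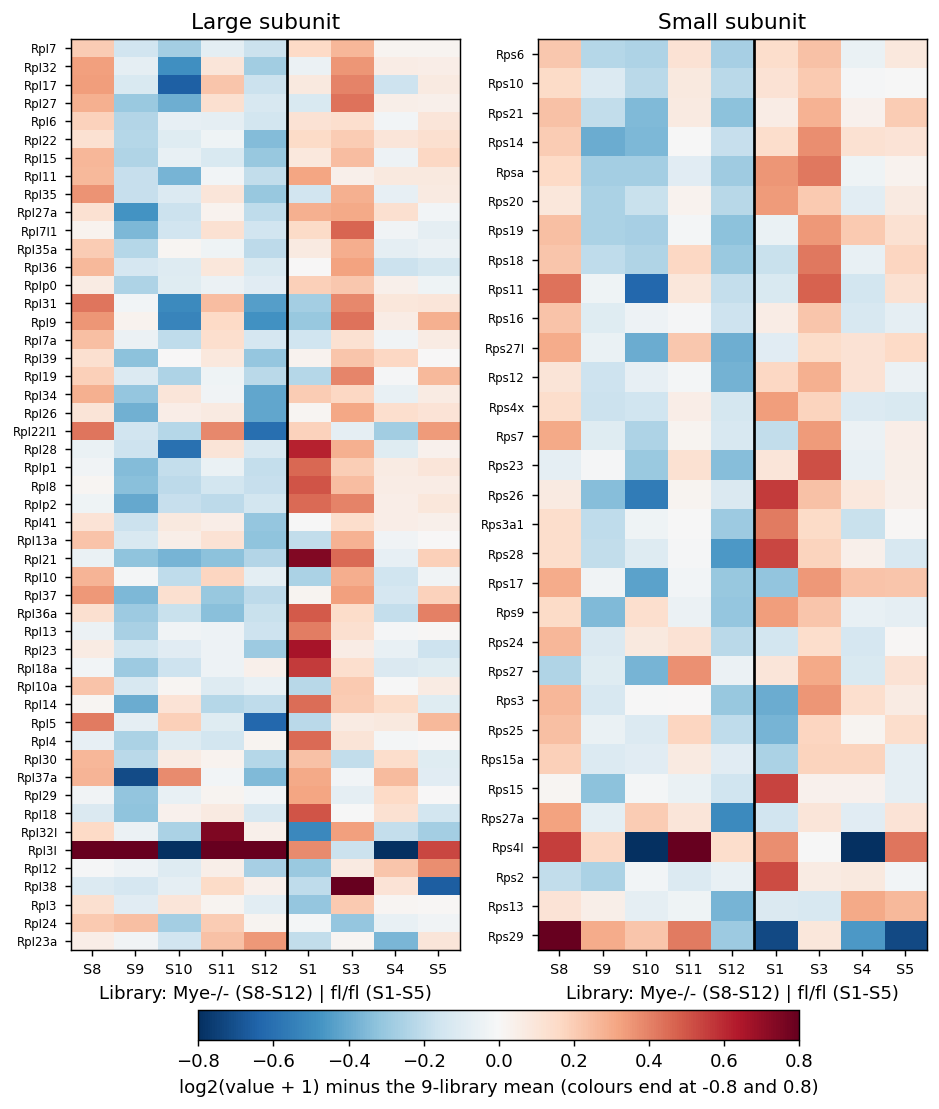
Level of 81 of the 83 genes (rows; large subunit left, small subunit right) in each library (columns; Mye-/- left of the black line, fl/fl right of it) as log2(value + 1) minus the gene's mean over 9 libraries, with rows ordered by how closely a gene followed the others. S8 and S3 are mostly red and S9, S10 and S12 mostly blue, while S1 is red for some genes and blue for others.

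The members varied together across libraries. Over the 9 libraries, the median Pearson correlation of pairs was 0.46 within the large subunit (1225 pairs), 0.53 within the small subunit (528 pairs) and 0.49 between subunits (1650 pairs). Members paired with other features that averaged 1000 or more had a median of -0.00 (425375 pairs). After the group means were taken out, the medians were 0.41, 0.55 and 0.47, so the shared movement lay within the genotypes too. These correlations are a description over 9 points that share depth and scaling. Rps6, the target of S6 kinases, followed the mean of the other members most closely (r = 0.99), then Rps10 (0.98). At the other end stood Rpl23a (-0.03), Rpl24 (-0.01) and Rps29 (0.13).

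Across the whole table limma, on log2(value + 1) with Benjamini-Hochberg adjustment, called 3 of 15288 features (0.0196%), and 0 of the 83 ribosomal protein genes. The smallest adjusted p of a member was 0.218. Without 1 library the count over all features was 0 (S8 or S10), 1 (S11), 5 (S9 or S3), 7 (S1) and 20 (S5), and the count of members stayed at 0. On the whole reads recovered from the table, edgeR called 2 features (0.0131%) and 0 members. DESeq2 called 55 features lower (0.36%) and 91 higher (0.595%) in Mye-/- libraries. Its calls held 2 members, both lower: Rpl21 (adjusted p = 0.0324) and Rplp2 (adjusted p = 0.0424).

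Most members nonetheless lay on the lower side in Mye-/- macrophages by a small amount. The log2 fold change was below 0 for 44 of 50 large-subunit genes and 28 of 33 small-subunit genes, against 45.4% of all features tested and 51.9% of those that averaged 1000 or more. It had a median of -0.18 for the large subunit and -0.18 for the small subunit, against 0.06 for all features and -0.01 for those with a mean of at least 1000. Since the members moved together from library to library, 72 genes are far fewer than 72 separate observations. Without S1 and S3, the fl/fl libraries with the highest levels, 38 and 27 genes were lower and both medians were -0.10. Among 11-week-old mice alone (S8 and S12 against 4 fl/fl), 41 and 25 were lower, with medians of -0.12 and -0.17.

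At an unadjusted limma p under 0.05, 7 large- and 4 small-subunit genes were lower (13.3% of the 83, against 4.13% of all features and 8.46% of those with a mean of at least 1000), and 1 gene was higher (1.2%, against 6.38%). The counts of 7 and 4 moved with the libraries compared. They were 1 and 0 with age in the fit, and 0 and 0 among 11-week-old mice alone. Both settings compare S8 and S12 with the 4 fl/fl libraries, because no fl/fl mouse was 10 weeks old. With fewer Mye-/- libraries in the contrast, these lower counts cannot show an effect of age. The counts were 11 and 9 without S8, 4 and 1 without S9, and 4 and 2 without S3. The small-subunit count was 2 without S10 and 1 without S12. The values of the groups did not overlap, with Mye-/- lower, for 5 genes (Rplp2, Rpl8, Rplp1, Rpl13 and Rps2), which is 6.02% of the 83, against 1.6% of all features and 3.17% of those that averaged 1000 or more. They did not overlap in the other direction for 0 genes, against 1.7% of all features.

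**Figure D3:**
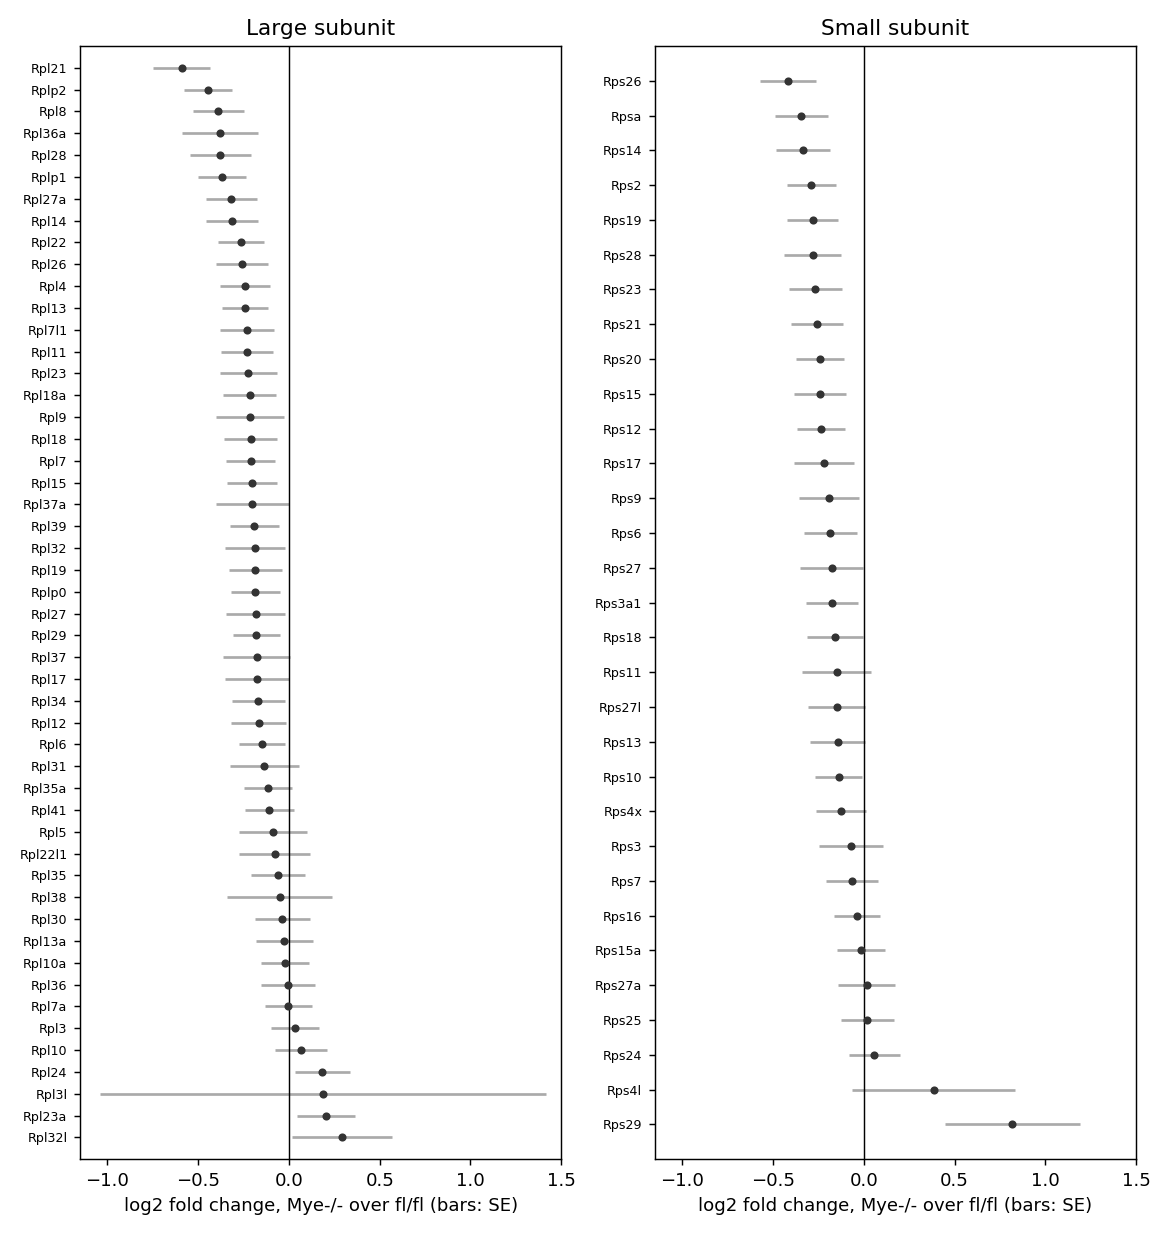
Log2 fold change of Mye-/- over fl/fl libraries (horizontal axis; bars are SE) for the 50 large-subunit genes (left) and 31 small-subunit genes (right), in order of size. Most points lie between 0 and -0.5, Rpl21 is lowest at -0.59, and Rps29 is highest at 0.82.

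Both small stalk proteins were among the 4 large-subunit genes with the smallest p. Rplp0 anchors the stalk that recruits the GTPases of translation, and Rplp1 and Rplp2 bind to it as dimers. Rplp2 (chr7:141447643-141451585) had 12207, 9408, 11003, 10816 and 11284 normalized reads in Mye-/- libraries S8 to S12, against 17136, 16440, 12986 and 13302 in fl/fl libraries S1, S3, S4 and S5. All 5 Mye-/- values were below all 4 fl/fl values. The log2 fold change was -0.45 (SE 0.13, limma adjusted p = 0.267).

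Rplp1 (chr9:61913283-61914542) had 29793, 23828, 26552, 29228 and 26578 reads in Mye-/- libraries, against 41806, 34732, 31709 and 32437 in fl/fl libraries, again without overlap. Its log2 fold change was -0.37 (SE 0.13, limma adjusted p = 0.337). Rplp0 had 60971, 49003, 54377, 56397 and 54535 reads in Mye-/- libraries, against 66451, 67547, 59678 and 56696 in fl/fl libraries. S8 lay above S4 and S5, so the groups overlapped for the anchor, whose log2 fold change was -0.18 (SE 0.14, limma adjusted p = 0.662).

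Taken as a ratio within each library, which cancels the library's scaling, Rplp2 over Rplp0 was 0.200, 0.192, 0.202, 0.192 and 0.207 in Mye-/- libraries S8 to S12. It was 0.258, 0.243, 0.218 and 0.235 in fl/fl libraries S1, S3, S4 and S5, so the groups did not overlap. Rplp1 over Rplp0 was 0.489, 0.486, 0.488, 0.518 and 0.487 in Mye-/- libraries, against 0.629, 0.514, 0.531 and 0.572 in fl/fl libraries. Here S11 lay just above S3. The Mye-/- ratios were also the less spread, with an SD of 0.00663 for Rplp2 over Rplp0 against 0.0168 in fl/fl libraries. These ratios carry no test, and a ratio shows unequal levels rather than which gene moved.

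**Figure D4:**
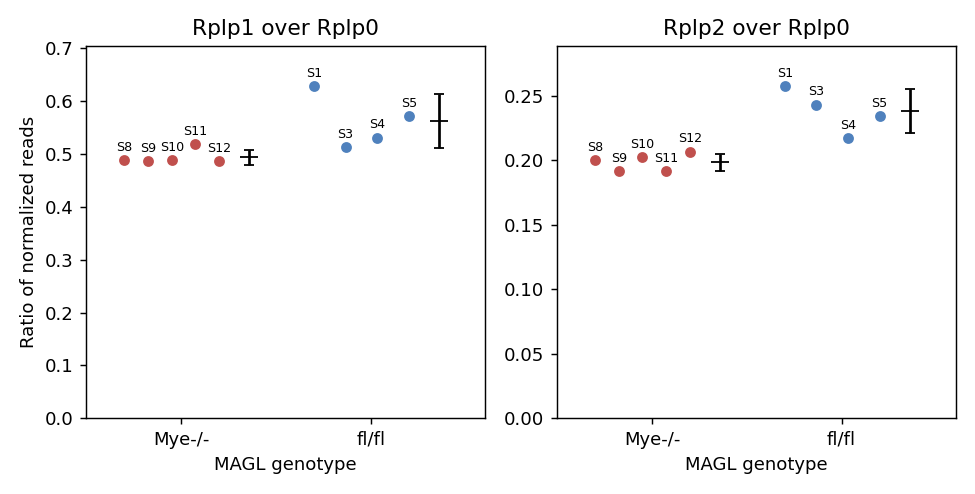
Normalized reads of Rplp1 (left) and Rplp2 (right) divided by those of Rplp0 in the same library, for 5 Mye-/- libraries (red) and 4 fl/fl libraries (blue); bars are mean and SD. For Rplp2 all 5 Mye-/- ratios (0.192 to 0.207) lie below all 4 fl/fl ratios (0.218 to 0.258), and for Rplp1 only S11 and S3 cross.

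Rpl21 (chr5:146832890-146837030) had the smallest p of all members. It had 5385, 4464, 4313, 4448 and 4748 reads in Mye-/- libraries S8 to S12, against 9329, 7637, 5328 and 6372 in fl/fl libraries S1, S3, S4 and S5. Only S8 and S4 crossed, and S1 was the highest. The log2 fold change was -0.59 (SE 0.16, limma adjusted p = 0.218). GENCODE annotates 77 other genes with a near-identical copy of its coding sequence (at least 90% identity over at least 80% of its length), the most of any member. Its reads may therefore have been shared with pseudogenes in a way that the table does not show.

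Rpl8, a protein next to the peptidyl transferase centre, has 0 such copies. It had 45734, 35889, 39091, 40811 and 39780 reads in Mye-/- libraries, against 64131, 53592, 47192 and 47110 in fl/fl libraries. The groups did not overlap, and the log2 fold change was -0.39 (SE 0.14, limma adjusted p = 0.337). Rpl13 had 13968, 12097, 14197, 14085 and 12882 reads in Mye-/- libraries, against 19234, 15785, 14393 and 14525 in fl/fl libraries. Its groups stood apart by a narrow margin, S10 against S4, and its log2 fold change was -0.24 (SE 0.13, limma adjusted p = 0.523). Rpl13 is named because its groups did not overlap.

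Rpl28, Rpl27a, Rpl14 and Rpl22, the other large-subunit genes among the 8 with the smallest p, had log2 fold changes between -0.38 and -0.26 and limma adjusted p between 0.444 and 0.480. Rpl28 averaged 5790 ± 975 reads in Mye-/- libraries and 7565 ± 1714 in fl/fl libraries (SD, n = 5 and n = 4). Rpl22, which mice need for alpha-beta T cells but not for life, averaged 19509 ± 2436 in Mye-/- libraries and 23265 ± 748 in fl/fl libraries. In all 4 genes at least 1 Mye-/- library lay within the fl/fl range.

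Of the small subunit, Rps26, a protein at the exit of the message channel, had 11251, 8457, 7282, 10863 and 9882 reads in Mye-/- libraries S8 to S12, against 15784, 12627, 11381 and 11041 in fl/fl libraries S1, S3, S4 and S5. Only S8 and S5 crossed. The log2 fold change was -0.42 (SE 0.15, limma adjusted p = 0.347).

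Rpsa, a small-subunit protein also known as a laminin receptor, had 35320, 26214, 26206, 29758 and 25987 reads in Mye-/- libraries, against 40402, 42456, 30919 and 32341 in fl/fl libraries. S8 alone lay within the fl/fl range, and the log2 fold change was -0.35 (SE 0.15, limma adjusted p = 0.428). Rps2, at the entry of the message channel, had 18466, 17738, 20790, 19567 and 20263 reads in Mye-/- libraries, against 30373, 22147, 22274 and 20824 in fl/fl libraries. The groups did not overlap, but S10 and S5 were almost level, and S1 stood far above the other fl/fl libraries. Its log2 fold change was -0.29 (SE 0.14, limma adjusted p = 0.467).

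Rps14, whose human counterpart is lost in a form of myelodysplastic syndrome, averaged 42771 ± 7614 reads in Mye-/- libraries and 53412 ± 4760 in fl/fl libraries, with a log2 fold change of -0.33 (SE 0.15, limma adjusted p = 0.452). S8 lay within the fl/fl range.

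Rps29, a small zinc-binding protein whose human gene is mutated in Diamond-Blackfan anaemia, went the other way. It had 854, 462, 438, 502 and 307 reads in Mye-/- libraries S8 to S12, against 227, 401, 273 and 228 in fl/fl libraries S1, S3, S4 and S5. S8 was the highest, and S12 lay below S3, so the groups overlapped. The log2 fold change was 0.82 (SE 0.37, limma adjusted p = 0.456). Rps29 was the member with the second lowest reads, and it has 12 near-identical copies.

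The other members with the largest positive values did not pass either. Rpl23a, which lies at the exit of the peptide tunnel and meets the signal recognition particle, averaged 2835 ± 397 reads in Mye-/- libraries and 2461 ± 352 in fl/fl libraries (log2 fold change 0.20, SE 0.16, limma adjusted p = 0.685). Rps4l, an annotated processed pseudogene related to X-linked Rps4x, averaged 539 ± 222 and 436 ± 209 (log2 fold change 0.38, SE 0.45, limma adjusted p = 0.801).

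**Figure D5:**
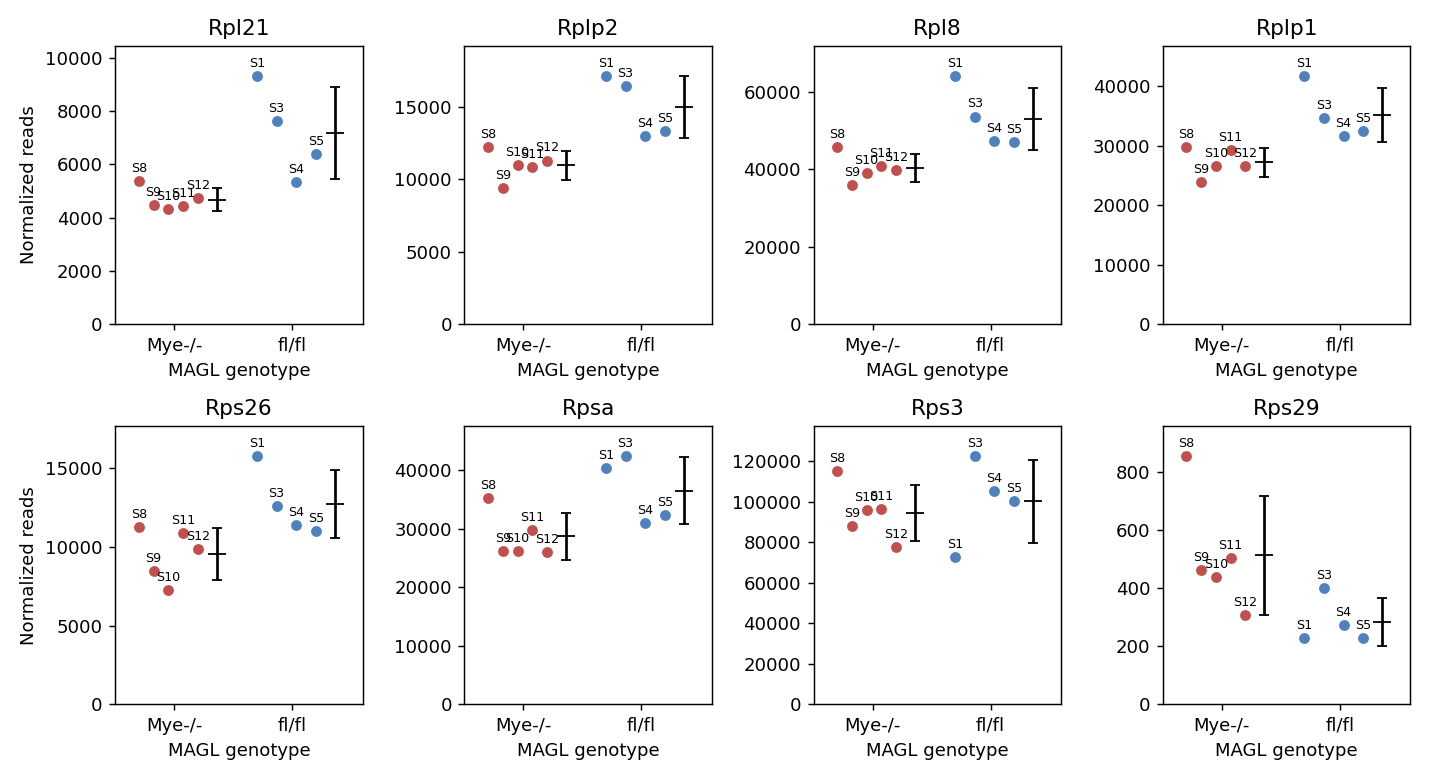
Normalized reads per library (vertical axes start at 0) of 8 members in 5 Mye-/- libraries (red) and 4 fl/fl libraries (blue); bars are mean and SD. Rplp2, Rpl8 and Rplp1 show no overlap, Rpl21, Rps26 and Rpsa overlap through S8, Rps3 overlaps widely, and Rps29 is mostly higher in Mye-/- libraries.

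Among the most heavily read members, Rps3 and Rpl13a had log2 fold changes near 0, while Rps9 and Rpl32 were near the median of all members. Rps3, at the entry of the message channel, had 115505, 88037, 96012, 96381 and 77838 reads in Mye-/- libraries S8 to S12, against 73013, 122730, 105220 and 100506 in fl/fl libraries S1, S3, S4 and S5. The fl/fl group held both the highest and the lowest library, and the log2 fold change was -0.07 (SE 0.18, limma adjusted p = 0.915). It turned to 0.03 without S3. Rps9 averaged 80902 ± 13170 reads in Mye-/- libraries and 92027 ± 13033 in fl/fl libraries (log2 fold change -0.19, SE 0.16). Rpl13a, which in human monocytes leaves the ribosome after interferon-gamma to silence inflammatory messages, averaged 66137 ± 9596 and 67206 ± 9485 (log2 fold change -0.03, SE 0.16). The Rpl13a feature also carries the symbol Flt3l, so reads of both genes are in it. Rpl32 averaged 45265 ± 9925 and 50856 ± 6351 (log2 fold change -0.19, SE 0.17).

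Per kilobase of coding sequence, the 81 members with a coding length ranged widely for proteins needed in matched amounts. The median level over the 9 libraries was 22645 normalized reads per coding kilobase in the large subunit and 35198 in the small subunit. Rpl41, whose coding sequence of 75 bases is the shortest, was highest at 552078, a level inflated by untranslated sequence. Rps9 followed at 147503, Rps3 at 133401 and Rpl32 at 117900 per coding kilobase. Rps29 was the lowest apart from Rpl3l, at 2443 per coding kilobase, then Rpl36a at 3457 and Rpl38 at 3458. Members with 10 or more near-identical copies had a median of 24326 per coding kilobase (37 members), and those with at most 1 had 47790 (8 members).

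Near-identical copies limit what a single gene's value means, so the fold changes were also read by copy number. The median member had 8 copies, and 37 had 10 or more. Among the 5 large-subunit members with at most 1 copy, Rplp2 (-0.45), Rpl8 (-0.39), Rpl14 (-0.31) and Rpl4 (-0.24) had log2 fold changes below 0 and the muscle paralog Rpl3l (0.19) above 0. Large-subunit members with 10 or more copies had a median log2 fold change of -0.18 (22 members, 19 below 0). In the small subunit the medians were -0.13 with at most 1 copy (4 members) and -0.18 with 10 or more (15 members). There were 5 features that carry a second symbol (Rpl30, Rpl34, Rpl26, Rps27 and Rpl13a). Without them the median over 78 members was -0.18.

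Hosting a snoRNA did not mark out the lower members, and of position only the X chromosome was looked at. The members lie on 19 chromosomes, and 30 of them hold 58 annotated snoRNAs. The median log2 fold change was -0.18 in the 30 hosts and -0.18 in the 53 other members. The 4 X-linked members had a median of -0.16.

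Some paralogs replace a standard protein in certain tissues. The 6 members with paralog-type symbols that were tested had a median log2 fold change of 0.06 (3 below and 3 above 0), against -0.18 for the 77 others. Of those above 0, Rps4l (0.38) and Rpl32l (0.29) are annotated as processed pseudogenes. The 4 protein-coding ones had a median of -0.11, with Rpl7l1, Rps27l and Rpl22l1 below 0 and Rpl3l above 0. Rps27l, a p53 target, was the one of these 6 with more reads than its parent: Rps27l over Rps27 was 4.34, 3.08, 2.93, 2.69 and 2.35 in Mye-/- libraries S8 to S12, against 2.62, 2.68, 3.52 and 3.08 in fl/fl libraries S1, S3, S4 and S5. The groups overlapped, and the Rps27 feature carries a second symbol, Rps27rt, and has 10 near-identical copies.

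Rpl22l1, the paralog of Rpl22, had 6722, 4482, 4268, 6520 and 3287 reads in Mye-/- libraries, against 5666, 4751, 4123 and 6312 in fl/fl libraries (log2 fold change -0.08, SE 0.20, limma adjusted p = 0.916). Rpl22l1 over Rpl22 was 0.255 ± 0.0501 in Mye-/- libraries and 0.224 ± 0.0423 in fl/fl libraries (SD, n = 5 and n = 4), a gap within the spread. Rpl7l1 over Rpl7 was 0.142 ± 0.0175 and 0.143 ± 0.0136. Rps4l over Rps4x was 0.0201 ± 0.0071 and 0.0150 ± 0.0075.

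Rpl32l over Rpl32 was 0.0130, 0.0149, 0.0172, 0.0230 and 0.0182 in Mye-/- libraries S8 to S12, against 0.0106, 0.0143, 0.0123 and 0.0116 in fl/fl libraries S1, S3, S4 and S5, with only S8 and S3 crossing. Rpl32l has 7 near-identical copies, and its reads may be reads of Rpl32. Rpl3l, the striated muscle form of Rpl3, was at 205, 176, 0.848, 220 and 177 reads in Mye-/- libraries, against 92.8, 63.3, 31.4 and 104 in fl/fl libraries. All Mye-/- libraries but S10 were above all fl/fl libraries, and S10 was near 0 (log2 fold change 0.19, SE 1.23, limma adjusted p = 0.973). Rpl3 itself averaged 16197 ± 1122 and 15930 ± 2291 reads. Rpl10 and Rpl39, the parents of the testis paralogs that were left out, averaged 16875 ± 2254 and 14706 ± 2192 reads in Mye-/- libraries, against 16185 ± 2792 and 16653 ± 1203 in fl/fl libraries.

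Other genes of ribosome production and its control were read from lists chosen with earlier results known, beside the same background. That background was 0.0196% of features called by limma after adjustment, 4.13% lower and 6.38% higher at an unadjusted p under 0.05, and 45.4% with a log2 fold change below 0. Among features that averaged 1000 or more, 8.46% were lower and 8.46% higher at that p, and 51.9% were below 0. No list had a member past the adjusted threshold by limma. Fau, which encodes a small-subunit protein fused to a ubiquitin-like protein, averaged 6628 ± 938 reads in Mye-/- libraries and 6615 ± 1607 in fl/fl libraries (log2 fold change 0.03, SE 0.17, limma adjusted p = 0.969).

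Other messages with a TOP run, such as elongation factors, lay lower for 17 of 18 genes (94.4%, against 45.4% of all features), with a median log2 fold change of -0.09. Of these, 1 was lower at an unadjusted p under 0.05 (5.56%, against 4.13%, or 8.46% of features that averaged 1000 or more). The smallest p were those of the initiation factor gene Eif3k (7183 ± 635 reads in Mye-/- libraries and 9160 ± 1879 in fl/fl libraries, log2 fold change -0.33), Eef1g (-0.24) and Eef1d (-0.20). The 7 noncoding snoRNA hosts with a TOP run lay the other way, 6 above 0, with a median of 0.15 and 0 at an unadjusted p under 0.05 in either direction. Snhg5 (1332 ± 369 and 975 ± 176 reads, log2 fold change 0.42), Snhg1 (0.21) and Snhg15 (0.20) had the smallest p.

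RNA polymerase I genes, which make the rRNA precursor, had a median log2 fold change of -0.05 (9 of 15 below 0, or 60%). At an unadjusted p under 0.05, 3 were lower: Cd3eap (-0.85), Polr1c (-0.45) and Polr1d (-0.33). That is 20%, against 4.13% of all features, or 8.46% of features that averaged 1000 or more. A list of core proteins of snoRNPs, the particles that modify rRNA, also held Ncl, Nolc1 and Naf1, which are not core proteins. The list had a median of -0.34 (9 of 11 below 0). At an unadjusted p under 0.05, 4 were lower (36.4%, against 4.13%, or 8.46% of features that averaged 1000 or more). Among these 4 were the methyltransferase gene Fbl (1052 ± 280 reads in Mye-/- libraries and 1589 ± 420 in fl/fl libraries, log2 fold change -0.60), Ncl (-0.34) and Nhp2 (-0.46).

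Large-subunit assembly factors had a median of -0.09, with 25 of 40 below 0 (62.5%, against 45.4% of all features). At an unadjusted p under 0.05, 7 were lower (17.5%, against 4.13%, or 8.46% of features that averaged 1000 or more). At that p, 1 was higher (2.5%, against 6.38%, or 8.46%). Eif6, which keeps the new large subunit from joining too early, averaged 2029 ± 169 reads in Mye-/- libraries and 3303 ± 872 in fl/fl libraries without overlap (log2 fold change -0.67, SE 0.17, limma adjusted p = 0.218), and DESeq2 called it lower (adjusted p = 0.0371). Mrto4, which holds the place of Rplp0 on the immature subunit, had a log2 fold change of -0.64 without overlap, and the SUMO protease gene Senp3 had 0.46, also without overlap. Small-subunit assembly factors had a median of -0.17, with 30 of 39 below 0 (76.9%, against 45.4% of all features). At an unadjusted p under 0.05, 4 were lower (10.3%, against 4.13%, or 8.46% of features that averaged 1000 or more). At that p, 0 were higher (against 6.38%, or 8.46%). Their smallest p were those of the methyltransferase gene Emg1 (-0.37), Nol10 (-0.64) and Dcaf13 (-0.38).

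A list of genes that control TOP messages, with the mTORC1 pathway, Larp proteins and the Myc and Max network, had a median of -0.00 (17 of 33 below 0). At an unadjusted p under 0.05, 0 were lower and 4 higher: Larp4b, Rragd, Sesn1 and Mxd1. These 4 are 12.1%, against 6.38% of all features, or 8.46% of features that averaged 1000 or more. Mxd1, a Max partner, had a log2 fold change of 0.49. Larp4b averaged 2089 ± 515 reads in Mye-/- libraries and 1283 ± 234 in fl/fl libraries without overlap (log2 fold change 0.69, SE 0.20, limma adjusted p = 0.256). Sesn1, a sestrin that restrains mTORC1, had a log2 fold change of 0.78. Rragd was listed at 0 in all 4 fl/fl libraries and at 0 to 94.0 in Mye-/- libraries. It reached 10 only in Mye-/- libraries, so it passed the level filter through the group where it is high. Its p, its DESeq2 call (adjusted p = 0.0151) and its place among the 4 are therefore no evidence of a difference. Genes of ribosome rescue and quality control had a median of 0.15 (12 of 13 above 0), with 7.69% below 0 against 45.4% of all features. At an unadjusted p under 0.05, 1 was lower (7.69%, against 4.13%, or 8.46% of features that averaged 1000 or more). At that p, 0 were higher (against 6.38%, or 8.46%). The lower one was Edf1, a sensor of collided ribosomes, at -0.33, while Gtpbp2 had 0.41 and Tcf25 had 0.25.

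Mitochondrial ribosomal proteins, which serve a separate ribosome, also lay mostly on the lower side. Of 77 genes, 61 were below 0 (79.2%, against 45.4% of all features), with a median log2 fold change of -0.21. At an unadjusted p under 0.05, 9 were lower (11.7%, against 4.13%, or 8.46% of features that averaged 1000 or more). At that p, 1 was higher (1.3%, against 6.38%, or 8.46%). Mrps14 (-0.73), Mrps25 (-0.59) and Mrps28 (-0.83) had the smallest p. Relative to each gene's 9-library mean, their median stood at 0.08, -0.13, -0.16, -0.01 and -0.15 in Mye-/- libraries S8 to S12, against 0.20, 0.23, 0.02 and 0.09 in fl/fl libraries S1, S3, S4 and S5. S1 and S3 were highest, as they were for many cytosolic genes. The lower median was therefore shared with the mitochondrial ribosome, and no test set the cytosolic genes apart from it.

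Several other measures moved with genotype or with S1 and S3. All 5 tested erythroid genes were lower in Mye-/- libraries (100%, against 45.4% of all features), with a median log2 fold change of -1.89. S3, the library with the highest median ribosomal protein level, also held the most Hba-a1 (11962 reads, against 902 to 1630 in Mye-/- libraries). Hba-a1 had a limma adjusted p of 0.0832 and DESeq2 called it lower (adjusted p = 0.0151). Hepatocyte genes were above 0 in 11 of 11 tested (0% below 0, against 45.4% of all features), with a median of 1.19 and Trf at 0.02. In fl/fl libraries Rbp4 reached 10 only in S1 and S4, Ttr only in S4, and Fgg only in S3 and S5. These genes passed the level filter through the Mye-/- libraries, where they are high, so their direction is no evidence of a difference.

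Of the 8 macrophage identity genes, 7 had a log2 fold change above 0, with a list median of 0.19. Mertk, an efferocytosis receptor, was at 1.44 (limma adjusted p = 0.356), Fcgr1 at 0.33 and Adgre1, which encodes F4/80, at 0.24. The exception was the lysozyme gene Lyz2, which averaged 169027 ± 24893 reads in Mye-/- libraries and 308919 ± 83367 in fl/fl libraries (log2 fold change -0.84, limma adjusted p = 0.218). The groups did not overlap for Lyz2, and DESeq2 called it lower (adjusted p = 8.13e-05). Kupffer cell genes had a median of 2.36 over 6 tested, on low reads. At an unadjusted p under 0.05, 3 were higher (50%, against 6.38% of all features) and 1 lower (16.7%, against 4.13%). The 3 higher ones, Clec4f, Cd5l and Marco, reached 10 in every Mye-/- library. In fl/fl libraries Clec4f reached 10 only in S5, and Cd5l and Marco only in S1 and S4. They passed the level filter through the group where they are high, so their p and this median are no evidence of a difference. Neutrophil genes were split, 4 below and 3 above 0 with a median of -0.01: S100a9 was at -1.31 and S100a8 at -0.81, while Csf3r was at 0.46.

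The feature that holds an annotated rRNA gene took 0.186 ± 0.063% of reads in Mye-/- libraries and 0.532 ± 0.368% in fl/fl libraries (SD, n = 5 and n = 4). S3 had the most, 1.05%, and also the largest share of reads on the mitochondrial chromosome, 9.45% against 3.93 to 7.09% in Mye-/- libraries. With the number of detected features in the fit, the medians of the ribosomal protein genes were -0.14 for the large and -0.19 for the small subunit. The part of these cell mixtures and RNA measures in the ribosomal protein values was not tested.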

How the data were processed

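RNA sequencing had been done on 9 libraries, 5 MAGL Mye-/- and 4 MAGL fl/fl. The deposited values are a signal: the authors divided the reads of each feature by 1 DESeq size factor per sample, per the submitters' processing notes, with no log and no length correction. STAR 2.4.0 and mm10 are named in these notes, with SAMtools, Picard, FastQC and DESeq, and FAST DB gene models in the file headers. How reads were counted, and with which strand setting, is not given in the sources used here. Overlapping and antisense genes therefore cannot be separated. All nonzero values were whole multiples of 1 read within a tolerance of 0.01 reads (100.0% per library), so whole reads were recovered. Without molecular identifiers, reads are not independent molecules, and totals give counting error only.

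Groups were compared with an intensity trend in limma 3.58.1 (R 4.3.3) on log2(value + 1), two-sided, Mye-/- minus fl/fl. The 15288 features that reached 10 in 4 or more libraries were tested, and p-values were adjusted by Benjamini-Hochberg, with calls under 0.05. The pseudocount understates changes of low genes. edgeR 4.0.16 (quasi-likelihood) called 2 and DESeq2 1.42.0 called 146 features on the whole reads. The scripts were tested on simulated data. Coding lengths, strands and snoRNAs came from GENCODE (GRCm38), and starts from RefSeq on GRCm38.p6. Near-identical copies came from BLAST 2.17.0 of coding sequences against GENCODE transcripts. They are counts of other annotated genes, so copies without an annotation are missed. Python 3.11.15 was used for summaries.

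Members and lists were chosen with earlier results of these data known, so lists carry counts and medians only. Members were named by a rule: the 8 large- and 6 small-subunit genes with the smallest p, the 3 and 2 with the highest level, up to 5 with the largest positive change, the stalk genes, paralog-type genes with their parents, and members called by a count model. The 3 genes with the smallest p were named in each other list of ribosome production. Rpl13, Rpl4, Rpl24, Rps10, Rps6, Rpl41, Rpl36a, Rpl38, Mxd1 and Adgre1 were named outside the rule, after their values were seen, as were the promoters printed. A few genes that the rule or the lists hold are not reported here. Other pseudocounts, filters, scalings and tools, age, and each library left out were tried as alternatives.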

Additional observations from a re-analysis of the deposited data

Results flagged for a closer look

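In 72 groups examined for 1 library far from the rest, 3 values stood out by Dixon's test at the 95% level, which flags about 1 group in 20 by chance. Rps2 in S1 was at 30373 normalized reads, the highest of the 4 fl/fl libraries, where the other 3 lay between 20824 and 22274. Rps14 in S3 was at 60510.0 reads, the highest of the 4 fl/fl libraries. Rpl3l in S10 was at 0.848 reads, the lowest of the 5 Mye-/- libraries, where the other 4 lay between 176 and 220.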

How the results depend on the processing

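No paired analysis was possible because the groups share no replicate numbers. The subunit medians, the counts of genes below 0 and the shares of reads kept their direction under every alternative run. Leaving out 1 library in turn, the large-subunit median ranged from -0.25 to -0.12 and the small-subunit median from -0.25 to -0.14. Without a filter the median of all features was 0.10, and changes relative to it were -0.28 for both subunits. Features called numbered 3, and 17 with a pseudocount of 8, 6 with TMM, 8 with quantile scaling, 146 with DESeq2, 9 with robust limma, 0 with age as a covariate, 0 in 11-week-old mice, 9 without S1 and S3, 0 with the number of detected features in the fit, and 0 to 20 leaving out 1 library. DESeq2 called 2 members and the main test 0. Large-subunit genes lower at an unadjusted p under 0.05 numbered 7, and 1 with age, 0 in 11-week-old mice, 2 without S1 and S3, 4 with detected features, and 4 to 11 leaving out 1 library. The small-subunit count was 4, and 1 with quantile scaling, 7 with DESeq2, 0 with age, 0 in 11-week-old mice, 1 without S1 and S3, 1 with detected features, and 1 to 9 leaving out 1 library. The cause was not tested. Age as a covariate and the 11-week-old mice give the same fold changes, since both compare S8 and S12 with the fl/fl libraries. Leaving out S1 and S3 and fitting detected features were chosen after the data were seen.

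Of 704 values of 32 single members, 682 kept direction and side of the threshold, 2 passed it (Rpl21 and Rplp2 with DESeq2) and 20 changed sign. Leaving out 1 library, Rpl3l ranged from -0.19 to 1.53, Rpl22l1 from -0.19 to 0.065, Rps4l from -0.10 to 0.66, Rps3 from -0.22 to 0.035, Rpl10 from -0.0068 to 0.17, Rpl13a from -0.096 to 0.063 and Rpl3 from -0.064 to 0.11. With detected features as a covariate, Rpl3l was at -1.39, Rps4l at -0.34, Rps3 at 0.075 and Rpl13a at 0.089. Without S1 and S3, Rps4x was at 0.061 and Rpl13a at 0.0012. Rpl3l had 1 to 219 reads per library and Rps4l 160 to 780, and the part of depth in their ranges was not tested.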
